A study of Mus musculus with 2 samples.

Results

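Genes for 8 enzymes and proteins that write, erase or read chromatin marks were examined in BUD31 RNA immunoprecipitation sequencing (RIP-seq) of mouse germ cells: the histone demethylase genes Kdm5b, Kdm5c and Kdm6a, the deacetylase gene Hdac2, the methyltransferase genes Dnmt3a and Dot1l, the testis bromodomain gene Brdt and the germline Polycomb gene Scml2. They were chosen by symbol from the authors' peak list and hold 93 of its 16331 peaks, as 8 of 3258 genes named there. All 8 were known to have peaks when they were chosen, so the presence of a peak in each is not a result. The antibody group is 1 library of RNA recovered with an antibody to BUD31, a protein of the spliceosome, and the input group is 1 library made from 10% of the total RNA, taken as input. Both come from germ cells released by enzymes, in a procedure of several steps, from C57BL/6J mouse testis of postnatal day 14, and the labels give no genotype or treatment that differs between them and no number of animals.

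A chromatin mark is a chemical group on DNA or on a histone. Methyl groups are placed by methyltransferases and removed by demethylases, acetyl groups are removed by deacetylases, and proteins with bromodomains bind acetylated histones. In the testis these activities accompany the passage of germ cells through meiosis, when the sex chromosomes of spermatocytes are silenced. The precursor of a messenger RNA is often mostly intron. The spliceosome acts on the precursor, so a RIP-seq peak of a spliceosome protein may lie in introns as well as in exons.

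Each peak is a stretch of the mm10 genome that the authors reported for the antibody library, with a gene and 1 annotation class. The list gives no read count, fold, score or strand, and the depth behind it is unknown. A gene is described here by its number of peaks, their widths and classes, and its covered share, which is the percentage of the bases between the gene's start and end that lie inside peaks named for it. The number counts every peak named for the gene, also any that lies outside the gene and adds nothing to the covered share. Neither group has a replicate (1 library each), so differences could not be checked against replicate error and no p-value is given. Positions fall on a grid of bins, of 200 bp on chromosomes 5 and 10, 205 bp on chromosomes 1 and 12 and 230 bp on the X chromosome. A peak edge is therefore known only to that width. Of the germ cell markers, 3 of 4 on chromosomes with any peak had one (Mael with 14, Tex11 with 38 and Sycp3 with 1). Sertoli cell markers had 2 of 4 (Wt1 with 1 and Kitl with 6), peritubular markers 2 of 4 (Myh11 with 1 and Mylk with 15), Leydig cell markers 0 of 3, and macrophage and endothelial markers 0 of 4 each. Over all protein-coding genes on chromosomes with any peak 18.8% had one. That share differs widely between chromosomes, and the markers were not split by chromosome, so the counts do not compare cell types. The part of these cell types in the values of the 8 genes was not tested. In RNA of mixed cells fewer cells of a type and less RNA per cell cannot be told apart.

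The windows that end at the annotated start sites of 4 of the 8 genes are shown first, because peaks reached the start of 3 genes and lay on both sides of an internal start in Dnmt3a and Scml2. The sequences are from RefSeq on build GRCm38.p6, the mm10 assembly, on the plus strand, 5′ to 3′. Each is the 250 bases that precede a start site, and capitals mark bases inside a peak. The Kdm5c window is chrX:152232977-152233226, the Kdm6a window chrX:18162325-18162574 and the Scml2 window chrX:161162500-161162749. The Dnmt3a windows are chr12:3806730-3806979, before the first start, and chr12:3891494-3891743, before the internal one.
Kdm5c: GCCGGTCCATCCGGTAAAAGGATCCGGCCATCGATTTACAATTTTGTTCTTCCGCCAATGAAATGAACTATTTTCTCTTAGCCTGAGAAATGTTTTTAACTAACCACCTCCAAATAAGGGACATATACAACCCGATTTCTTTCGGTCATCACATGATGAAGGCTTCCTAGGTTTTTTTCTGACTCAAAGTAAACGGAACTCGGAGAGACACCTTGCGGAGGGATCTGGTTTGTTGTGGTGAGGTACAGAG
Kdm6a: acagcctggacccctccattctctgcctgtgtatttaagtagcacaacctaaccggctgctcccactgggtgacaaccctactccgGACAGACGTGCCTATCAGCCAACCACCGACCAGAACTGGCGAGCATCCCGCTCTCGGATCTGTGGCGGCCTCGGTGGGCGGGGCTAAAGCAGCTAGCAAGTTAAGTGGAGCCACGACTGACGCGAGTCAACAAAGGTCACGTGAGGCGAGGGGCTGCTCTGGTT
Dnmt3a first start: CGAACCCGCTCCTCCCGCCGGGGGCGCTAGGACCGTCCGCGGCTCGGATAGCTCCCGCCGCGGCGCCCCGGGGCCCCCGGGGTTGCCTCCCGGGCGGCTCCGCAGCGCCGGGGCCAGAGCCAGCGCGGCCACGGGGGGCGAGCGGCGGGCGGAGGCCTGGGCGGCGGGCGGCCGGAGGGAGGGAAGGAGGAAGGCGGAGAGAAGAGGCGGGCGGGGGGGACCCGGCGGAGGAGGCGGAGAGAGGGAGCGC
Dnmt3a internal start: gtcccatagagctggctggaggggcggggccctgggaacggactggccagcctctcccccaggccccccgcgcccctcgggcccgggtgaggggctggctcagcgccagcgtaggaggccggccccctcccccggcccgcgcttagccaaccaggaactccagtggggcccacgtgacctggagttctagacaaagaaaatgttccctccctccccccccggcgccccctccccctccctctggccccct
Scml2: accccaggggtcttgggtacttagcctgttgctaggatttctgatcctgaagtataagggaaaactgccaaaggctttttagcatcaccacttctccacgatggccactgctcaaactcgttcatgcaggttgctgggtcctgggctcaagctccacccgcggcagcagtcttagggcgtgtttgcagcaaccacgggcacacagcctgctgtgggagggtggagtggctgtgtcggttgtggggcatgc

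Peaks covered all 250 bases in Kdm5c and before the first Dnmt3a start, 164 of them in Kdm6a, and 0 before the internal Dnmt3a start and in Scml2. In Kdm5b, Hdac2, Dot1l and Brdt, whose windows are not shown, no base was covered either. The nearest peak of Scml2 lay 272 bp from the promoter window (250 bases before and 50 after the start), that of Hdac2 5408 bp, of Kdm5b 9564 bp, of the internal Dnmt3a start 14739 bp, of Dot1l 21149 bp and of Brdt 21758 bp. So 3 of the 8 genes had a peak in a promoter window. On 8 chromosomes 10% or more of the coding genes had a peak, and these are called well covered below. Among 5572 protein-coding genes with such a window on 7 of them, 6.84% did. Among the 2094 of these named for a peak, 17.0% did. In GC content the windows ran from 43.6% in Kdm5c, with 10 CpG dinucleotides, to 82.4% before the first Dnmt3a start, with 38. The median over 21263 protein-coding windows was 55.6%, with 10 CpG. The covered windows therefore lay at both ends of this range, with Kdm6a between them at 59.6%.

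Letters of 5 common promoter motifs were searched on both strands of the 10 windows of the 8 genes. GGGCGG, the letters of a GC box, stood in 7 windows of 5 genes, and in 42.6% of all protein-coding windows. CCAAT stood in those of Kdm5c and Brdt (35.4% of all windows) and CCGGAAG, an ETS motif, in that of Dot1l (8.98%). TATAAA (11.6%) and TGACGTCA (1.92%) were in none. The second Dnmt3a window overlaps the first, so these 2 share letters. A match is a description of the letters and not a bound site.

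Among the 8 genes the covered share ran from 2.86% in Brdt to 83.8% in Kdm6a, with a median of 45.2%. It was at least 50% in 4 genes (Kdm6a, Kdm5c, Scml2 and Kdm5b) and 35.5% or less in the other four. Among the 2620 other protein-coding genes with a peak on the well covered chromosomes the median was 15.4%, and 20.0% of them were covered over at least 50% of their span. All 8 genes lie on well covered chromosomes. A protein-coding gene was named for a peak in 18.8% of 14867 cases over all chromosomes with a peak and in 35.7% of 7352 on the well covered ones. The share was 39.9% on chromosome 1, 39.2% on chromosome 5, 30.4% on chromosome 10, 44.2% on chromosome 12 and 48.6% on the X chromosome. Nothing is read from these shares about the 8 genes, which were taken from the genes with peaks.

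**Figure D1:**
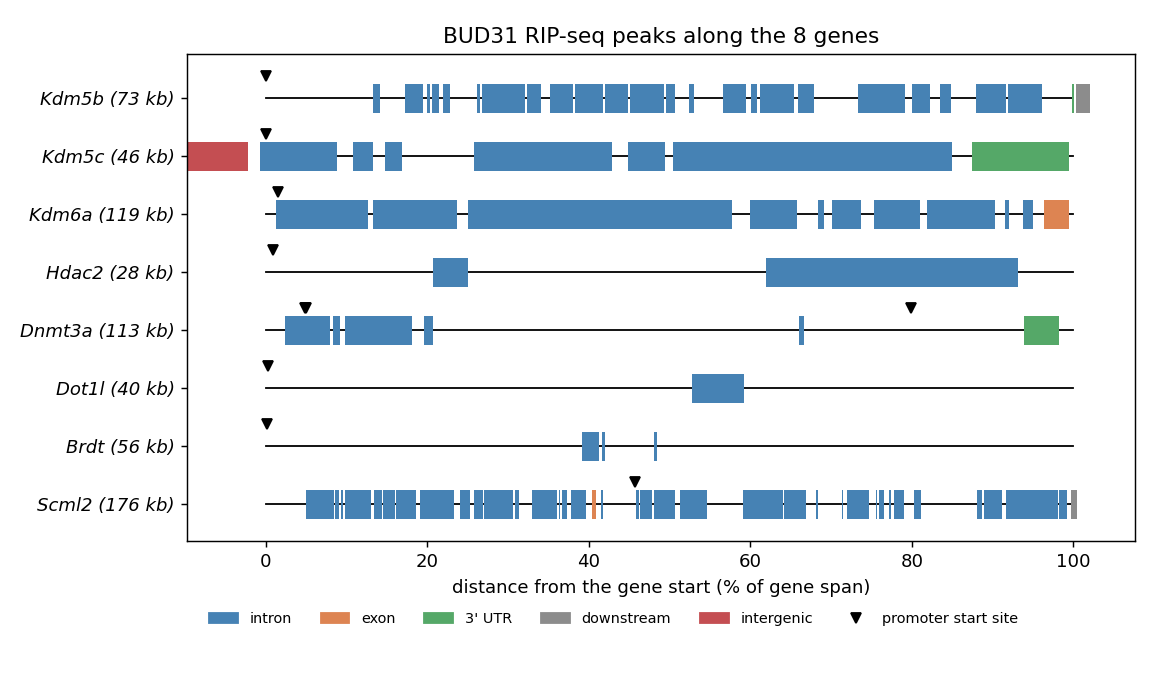
Peaks along the 8 genes. The horizontal axis is the distance from the gene start as a percentage of the gene span (in parentheses), bars are peaks coloured by the authors' class, and triangles mark annotated start sites. Bars fill most of Kdm5c and Kdm6a (81.4% and 83.8% of the span), lie near both ends of Dnmt3a, and are 1 in Dot1l and 3 in Brdt.

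The histone demethylase genes carried 44 of the 93 peaks. Kdm5b and Kdm5c encode enzymes of the same family, which remove methyl groups from lysine 4 of histone H3, a mark of active promoters. Kdm5b (gene 75605, chromosome 1, 134560178 to 134632878) had 25 peaks, of which 23 were annotated as intron, 1 as 3′ UTR and 1 as downstream. They were 205 to 4305 bp wide, with 1435 bp as the median, and covered 39923 bp, or 54.9% of the gene. No peak lay in its first 9.61 kb, and when the gene was divided into 5 equal parts from its start, 15.6% of part 1 was covered, against 58.9% to 69.0% of each of parts 2 to 5. The 3′ UTR peak was a single bin, 134632726 to 134632930, and crossed the annotated gene end.

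Kdm5b was broken into many pieces. Of its 24 gaps between neighbouring peaks 10 were exactly 1 bin wide, and joining neighbours across such gaps left 15 peaks. The authors' running numbers of its peaks span 39, of which 14 have no row in the list. No other gene of the 8 except Scml2 and Brdt had a gap of 1 bin.

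Kdm5c, an X-linked gene known to escape X inactivation in females, had fewer and wider peaks than Kdm5b. It lies at 152233198 to 152279102 on the X chromosome (gene 20591) and had 8 peaks of 920 to 15870 bp with a median of 3910 bp. They covered 37383 bp, or 81.4% of the gene. The widest, an intron peak at 152256321 to 152272190, held 38.5% of the width of all 8. Without it 46.9% of the gene was covered. The next downstream, at 152273341 to 152278860, was annotated as 3′ UTR. The first, of 3450 bp at 152228721 to 152232170, was annotated as intergenic and ended at -1.03 kb from the gene start. Each of the 5 equal parts of Kdm5c was covered over at least 66.5% of its length, and part 4 over 100%. Per 10 kb of gene, Kdm5b had 3.44 peaks and Kdm5c 1.74, the reverse of their order by covered share.

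Kdm6a (UTX) encodes a demethylase of lysine 27 of histone H3, the mark placed by Polycomb complexes, and is likewise X-linked. It had 11 peaks in 119 kb (gene 22289, 18160862 to 18279936), 10 annotated as intron and 1 as exon. They covered 99820 bp, or 83.8%, the highest share of the 8 genes. The widest ran over 38870 bp, from 18190701 to 18229570, and was the widest of all 93 peaks. Without it 51.2% of the gene was covered. The first peak began at 18162411, inside the Kdm6a window printed above, and the last, the exon peak of 3680 bp, ended at 18279250, before the gene end. Coverage of the 5 equal parts of the gene, in order from the start, was 90.6%, 93.2%, 88.5%, 74.8% and 72.0%. The running numbers of the 11 peaks have no number missing, and no base of the 20 kb on either side of the gene lay in a peak.

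Hdac2 encodes a class I histone deacetylase, the catalytic subunit of several corepressor complexes. It lies at 36974297 to 37001889 on chromosome 10 (gene 15182) and had 2 intron peaks. One of 1200 bp lay at 36980001 to 36981200, and one of 8600 bp lay at 36991401 to 37000000. Together they covered 35.5% of the gene, and the wider one held 87.8% of their width. Without the wider peak 4.35% of the gene was covered. In part 4 of the 5 equal parts of the gene 90.1% was covered, and 0% in parts 1 and 3.

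Dnmt3a encodes a DNA methyltransferase that sets new methylation patterns in germ cells, and it is known to be made in a long and a short form from separate promoters. It had 6 peaks in 113 kb of chromosome 12 (gene 13435, 3801559 to 3914443), 5 annotated as intron and 1 as 3′ UTR, and 20.9% of the gene was covered. The first 4 peaks lay between 2.63 and 23.3 kb from the gene start, and the widest of them, of 9430 bp, ran from 3812591 to 3822020. The first of them, of 6355 bp, spans both annotated first starts. Then followed a gap of 51250 bp, a peak of 615 bp, and the 3′ UTR peak of 4920 bp at 3907506 to 3912425. Of its 5 equal parts, part 1 was covered over 76.6%, part 5 over 21.8%, and the others over 0% to 3.34%. Of the 6 peaks 5 lay before the internal start at 3891744 and 1 after it, and the covered shares of both parts of the gene were close, at 20.7% before and 21.7% after. Without the widest peak the covered share of the gene was 12.5%.

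Dot1l encodes the methyltransferase of lysine 79 of histone H3. It had 1 peak of 2600 bp, annotated as intron, at 80776401 to 80779000 on chromosome 10 (gene 208266, 80755101 to 80795461). The peak covered 6.44% of the gene and began 21.3 kb from its start. Brdt encodes a bromodomain protein of the BET family that is made in the testis, where it binds acetylated histones in spermatocytes and spermatids. It had 3 intron peaks, of 1200, 200 and 200 bp, between 107353001 and 107358200 on chromosome 5 (gene 114642, 107331116 to 107387061). These covered 2.86% of the gene, the lowest share of the 8, and 2 of the 3 were single bins. Without the 1200 bp peak 0.715% of Brdt was covered. Both genes thus had peaks only in their middle, with 0% of parts 1, 4 and 5 of their 5 equal parts covered.

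Scml2 encodes a Polycomb protein of the germline that is known to act on the sex chromosomes during meiosis. It had the most peaks of the 8 genes, 37 over 176 kb of the X chromosome (gene 107815, 161082525 to 161258218). Of these, 35 were annotated as intron, 1 as exon and 1 as downstream. They were 230 to 11270 bp wide, with 1840 bp as the median, and 61.7% of the gene was covered. Of 36 gaps 8 were 1 bin wide, and joining across them left 29 peaks. In each of the 5 equal parts of the gene between 47.2% and 78.2% was covered.

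A start site inside Scml2, at 161162750, divides the gene. Before it lay 18 peaks, which covered 51980 bp or 64.8% of that part, and after it 19 peaks, which covered 56508 bp or 59.2%. The authors annotated all 18 peaks before the site, and 33 of the 37 in all, to predicted transcripts. Over all 8 genes 74 of the 93 peaks (79.6%) were annotated to predicted transcripts, against 7590 of the 16238 other peaks (46.7%). Among the 74 were all 8 of Kdm5c, both of Hdac2 and 23 of 25 of Kdm5b, but 3 of 11 of Kdm6a and 1 of 6 of Dnmt3a. Peaks of 1 gene are not independent, and most of the 74 were those of Scml2 and Kdm5b. Just beyond Scml2, 7 peaks annotated as intergenic and named for LOC108168453 covered 42.5% of the next 20 kb.

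**Figure D2:**
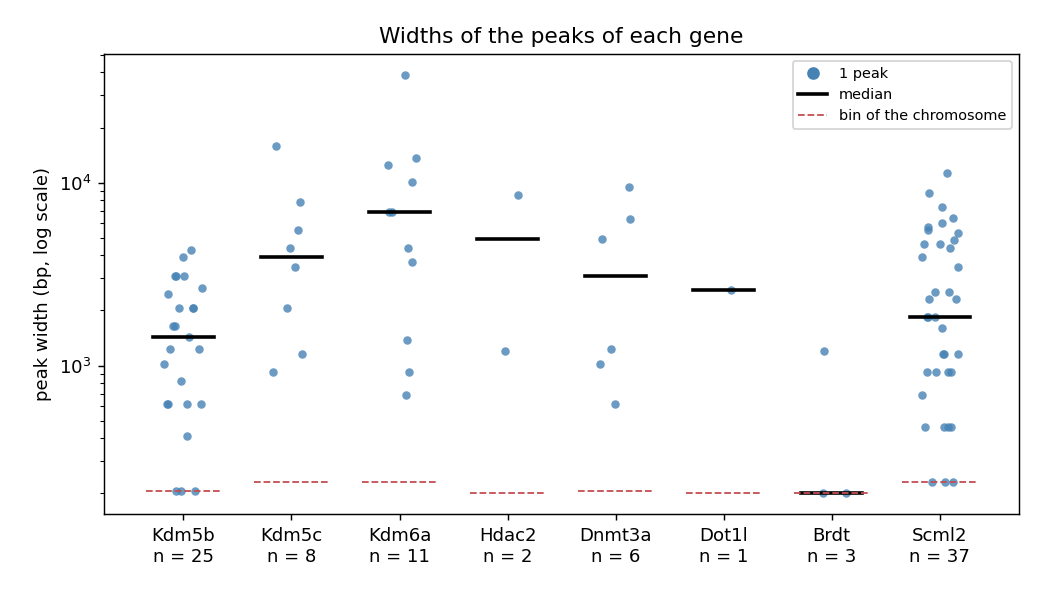
Widths of the 93 peaks by gene. The vertical axis is the peak width in bp on a log scale, points are peaks, black bars are medians and dashed lines are the bin of the chromosome. The peaks of Kdm6a have the highest median, 6900 bp, and 2 of the 3 peaks of Brdt lie on the 200 bp line.

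By class, 85 of the 93 peaks were annotated as intron (91.4%, exact binomial 95% interval 83.8% to 96.2%), against 81.7% (81.1% to 82.3%) of the 16238 other peaks. The intervals cover counting error only, and peaks of 1 gene are not independent. Of the 85, 35 were those of Scml2 and 23 those of Kdm5b. Classes outside the gene held 1265 of the other peaks and 3 of the 93. Exon and 3′ UTR classes held 5, in Kdm5b, Kdm5c, Kdm6a, Dnmt3a and Scml2, 1 each. With a single class for each peak, a wide one named intron may also cover exons, and an exon annotation was not used here. In Kdm6a and Kdm5c such peaks reached 38870 and 15870 bp. None of the 93 peaks overlapped another gene of the RefSeq annotation used here. Transcripts absent from that annotation were not examined.

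The X-linked genes had larger covered shares than the autosomal ones, and over all peaks wider ones. The 56 peaks of Kdm5c, Kdm6a and Scml2 had a median width of 2530 bp, and 30.4% were at least 5000 bp wide. The 37 peaks of the 5 autosomal genes had a median of 1230 bp, and 8.11% were that wide, but 25 of the 37 were those of Kdm5b. Gene by gene the median widths overlapped, at 1840 to 6900 bp in the X-linked genes and 200 to 4900 bp in the autosomal ones. Other peaks showed a difference in the same direction, with a median of 1840 bp for 3348 on the X chromosome and 1230 bp for 12870 on autosomes. The covered share was 61.7% to 83.8% in the X-linked genes and 2.86% to 54.9% in the autosomal ones, so the ranges did not overlap. The medians over other protein-coding genes with a peak were 36.6% on the X chromosome (466 genes) and 13.0% on the well covered autosomes (2154 genes). With 3 and 5 genes chosen for their values this is a description, and the wider bin of the X chromosome moves with it. The part of the bin was not tested.

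Rank among the genes with a peak on the same chromosome differed between number and coverage. Kdm6a was 46th of 469 X-linked genes by covered share and 70th by number of peaks, Kdm5c was 58th and 107th, and Scml2 was 130th and 11th. Kdm5b was 111th of 480 on chromosome 1 by covered share and 41st by number. Hdac2 was 18th of 304 on chromosome 10 by covered share, where the median was 5.51%, and 95th by number. Dot1l was 135th by covered share there. Dnmt3a, at 192nd of 300 on chromosome 12, and Brdt, at 415th of 497 on chromosome 5, lay below the medians of 32.0% and 10.1% of their chromosomes. The order of the 8 genes by covered share was thus not their order by number.

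To set genes of like length side by side, each gene was compared with protein-coding genes of its chromosome that had a peak and a span within 2-fold of its own. Genes without a peak were left out, since the 8 genes were chosen among those with one. A larger covered share than in Kdm6a was found in 2 of 113 such genes (median 31.5%), and a larger one than in Hdac2 in 2 of 130 (median 5.75%). For Kdm5c these were 18 of 161 (median 45.1%), for Scml2 16 of 92 (median 30.6%), for Kdm5b 50 of 189 (median 36.0%) and for Dot1l 40 of 116 (median 4.81%). Dnmt3a and Brdt lay below the median, with a larger share in 63 of 102 genes (median 34.0%) and 198 of 231 genes (median 10.3%). By number of peaks, more than in Scml2 were found in 6 of 92, more than in Kdm5b in 17 of 189, more than in Hdac2 in 23 of 130 and more than in Kdm5c in 35 of 161. For Kdm6a this was 49 of 113, for Brdt 125 of 231, for Dot1l 63 of 116 and for Dnmt3a 63 of 102. These are descriptions of genes chosen with their values known.

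The 3 genes nearest in span on the same chromosome, with or without a peak, give 24 neighbours. Of these 12 had no peak, and the 8 genes exceed them by the way they were chosen, so only the neighbours with a peak are set beside them. Kdm6a, with 11 peaks over 83.8%, stood beside Thoc2, an mRNA export gene, with 15 over 82.9%, while Heph and Gucy2f had none. Kdm5c, with 8 over 81.4%, stood beside Smc1a, a cohesin gene, with 9 over 72.2%, while Il13ra2 and Vsig4 had none. Scml2, with 37 over 61.7%, stood beside Klf8 with 25 over 35.8%, while Tmlhe had none. Hdac2, with 2 over 35.5%, stood beside Qrsl1 with 3 over 14.5%, while Rab21 and Mdm1 had none. Dot1l, with 1 over 6.44%, stood beside Tbk1 with 2 over 2.97%, while Vmn2r82 and Hkdc1 had none. In Kdm6a, Kdm5c, Hdac2 and Dot1l fewer peaks thus covered a larger share than in the neighbour. Kdm5b went the other way: its 25 peaks over 54.9% stood beside Hdlbp (12 over 66.0%), Fam117b (11 over 86.3%) and Creb1 (7 over 60.9%). Dnmt3a, with 6 over 20.9%, lay below Eml5 (32 over 63.3%) and Esyt2 (22 over 37.2%) in both measures, while Vsnl1 had none. Brdt, with 3 over 2.86%, lay below Tapt1 (8 over 24.6%) in both, while Slc26a5 and Ssh1 had none.

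**Figure D3:**
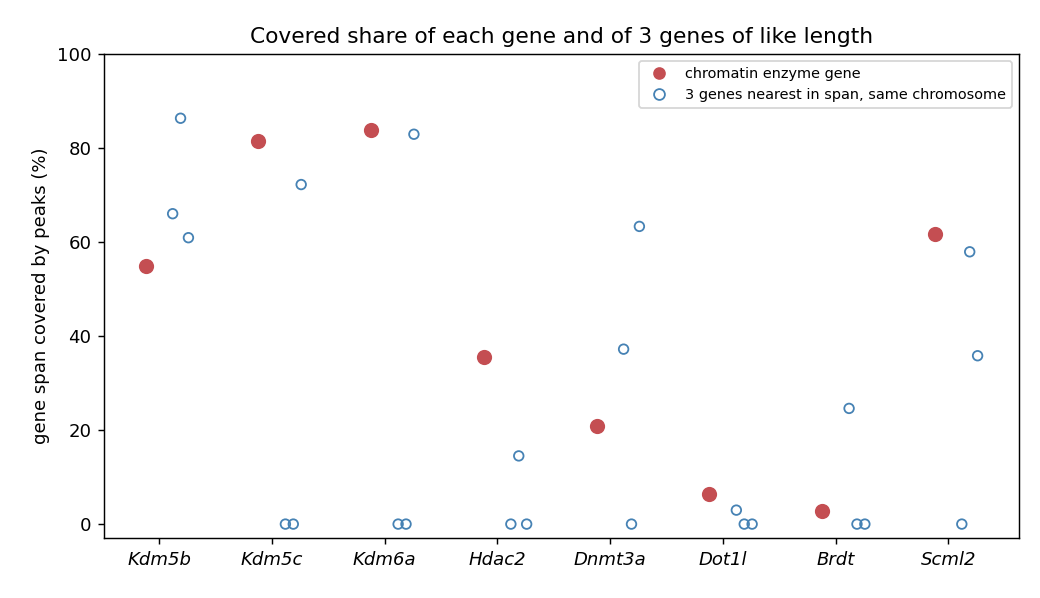
Covered share of the 8 genes and their length neighbours. The vertical axis is the percentage of the gene span inside peaks, filled points are the 8 genes and open points the 3 protein-coding genes of the same chromosome nearest in span. Of the 24 neighbours 12 lie at 0, below every one of the 8 genes by the choice of these, and all 3 neighbours of Kdm5b lie above its 54.9%.

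The genes most like each of the 8 were found by number of peaks and covered share together, among genes with a peak on the same chromosome and a span within 2-fold. Scml2 was nearest to Tex11, a meiotic gene with 38 peaks and a covered share of 63.0%, and to Cnksr2, with 40 and 65.2%, among 92 candidates. Kdm5b was nearest to Gigyf2 (25 peaks, 57.3%) and Ahctf1 (24 peaks, 54.8%) among 189. Kdm5c was nearest to Pdk3 (8 peaks, 81.4%) and Mtmr1 (8 peaks, 80.5%) among 161. Kdm6a was nearest to Tbl1x, which encodes a partner of histone deacetylases (10 peaks, 87.4%), and to Atp7a (11 peaks, 66.9%) among 113. The nearest of the others were Csnk1g2 and Ccn6 for Hdac2, Sos2 and Strn3 for Dnmt3a, Tcf3 and Msl3l2 for Dot1l, and D5Ertd579e and Cox7b2 for Brdt.

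The wider families of the 8 genes were described with 12 lists of 175 genes. On the chromosomes with any peak 46 of 127 listed genes were named for one (36.2%), and on the well covered chromosomes 44 of 59 (74.6%). Without the 8 genes these were 38 of 119 (31.9%) and 36 of 51 (70.6%). The shares over all protein-coding genes were 18.8% and 35.7%. Of the 127 listed genes 46 overlapped a peak in the reference table (36.2%), 46 had a peak of a class inside the gene (36.2%) and 41 had at least 2 peaks (32.3%), and over all protein-coding genes these shares were 19.0%, 17.8% and 13.0%. The 127 include the 8 genes, which had peaks by the way they were chosen, so part of these last counts follows from that choice. Likewise, the counts for single lists below include any of the 8 that a list holds. They stand beside the 35.7% of all protein-coding genes on the well covered chromosomes. The lists were not matched on length or expression. Another 46 listed genes lie on chromosomes that hold no row of the list and are not analysed here, and Dnmt3c and Setd8 were not matched by symbol.

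Paralogs of the 3 demethylase genes were set against them first. Kdm5d, the Y-linked counterpart of Kdm5c, had no peak, while Uty, the Y-linked counterpart of Kdm6a, had 4 intron peaks over 6.58% of its 161 kb, against 83.8% of Kdm6a. Reads of such X and Y pairs can be alike, and sharing of reads between them was not tested. Kdm6b lies on chromosome 11, which is thinly covered, and had none, and Kdm5a was not analysed here. Of the other demethylase genes on well covered chromosomes 5 of 6 had a peak. Phf8, an X-linked demethylase gene, had 10 over 59.3%, Kdm3b had 2 over 61.2%, Jmjd1c had 5 over 9.63%, Kdm2b had 4 over 5.40% and Riox2 had 1 over 8.66%, while Riox1 had none.

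Histone deacetylase genes on well covered chromosomes had a peak in 5 of 6, Hdac2 among them by its choice (35.7% of all protein-coding genes there had one). Beside Hdac2 these were Hdac6, with 3 over 97.4%, Hdac8, with 17 over 34.5%, Hdac3, with 3 over 31.0%, and Hdac4, with 13 over 5.61%, while Hdac9 had none. Hdac2 (35.5%) therefore lay within the range of its family. Genes of class I deacetylase complexes had a peak in 9 of 12. Among them Rcor1 and Rcor3, genes of CoREST complexes, had 20 over 53.0% and 11 over 16.6%, and Tbl1x had 10 over 87.4%. Mta1 had 6 over 33.2%, Mbd2 had 4 over 37.8%, Sap130 had 7 over 62.9%, and Gatad2a and Mier2 had 1 each, while Sin3b, Mbd3 and Sap30 had none. Of the sirtuin genes 1 of 3 had a peak, and Sirt4 and Sirt6 had none. Sirt1 had 3, of which 2 overlapped the gene, and 13.0% of it was covered.

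In the DNA methylation list Dnmt3a was the only gene of 5 on well covered chromosomes with a peak (20.0%, against 35.7% of all protein-coding genes there). As Dnmt3a was chosen with its peaks known, that count is not a result about the list. Dnmt3l, the cofactor of Dnmt3a in germ cells, Tet1, an enzyme that oxidises methylcytosine, Tdg and Morc1 had none. Dnmt3b, on thinly covered chromosome 2, had none. In the BET family Brdt had 3 peaks, and Brd2 and Brd3, on thinly covered chromosomes 17 and 2, had none. In the list of Dot1l, Mllt10, which encodes a partner of DOT1L, had 16 peaks over 17.7%, and Aff1 had none. Mllt10 was the 1 listed gene on a thinly covered chromosome with a peak, of 66.

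In the list of histone lysine methyltransferases 10 of 10 genes on well covered chromosomes had a peak (35.7% of all protein-coding genes there had one). The list goes by gene family, and activity of each protein on histones was not checked. Smyd3 had 126 over 15.5% of 566 kb, Setd3 had 16 over 53.4%, Kmt2c had 11 over 8.19%, Smyd2 had 7 over 13.2%, Nsd2 had 5 over 9.06%, and Suv39h1, which places the heterochromatin mark, had 3 over 83.7%. Kmt5a had 3, of which 1 overlapped the gene, and 4.47% of it was covered. Setd1b had 2 over 6.77%, Nsd3 had 2 over 3.39% and Kmt2e had 1 over 1.40%. Polycomb genes had a peak in 5 of 7, Scml2 among them by its choice. The others were Rbbp7 (4 over 47.9%), Rnf2 (3 over 39.6%), Pcgf3 (5 over 9.62%) and Mtf2 (3 over 5.51%), while Scml4, a paralog of Scml2, and L3mbtl3 had none. Scml2 had the largest covered share of these Polycomb genes. Acetyltransferase genes had a peak in 3 of 4, with Ncoa1 at 21 over 48.3%, Taf1 at 14 over 81.2% and Kat6a at 2 over 6.20%, and Crebbp at none.

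All 10 X-linked genes of the lists had a peak, the 3 described above by the way they were chosen. Without these 3, 7 of 7 had one, against 48.6% of the protein-coding genes of the X chromosome. That 48.6% is over genes of any length, and the 7 were not matched on length. Among X-linked coding genes with a span within 2-fold of that of Kdm5c, Kdm6a or Scml2, 69.7%, 77.9% and 81.4% had a peak. The covered share of the other seven had a median of 81.2%, and the median over other X-linked genes with a peak was 36.6%. These are counts over lists written with earlier results of these data known.

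**Figure D4:**
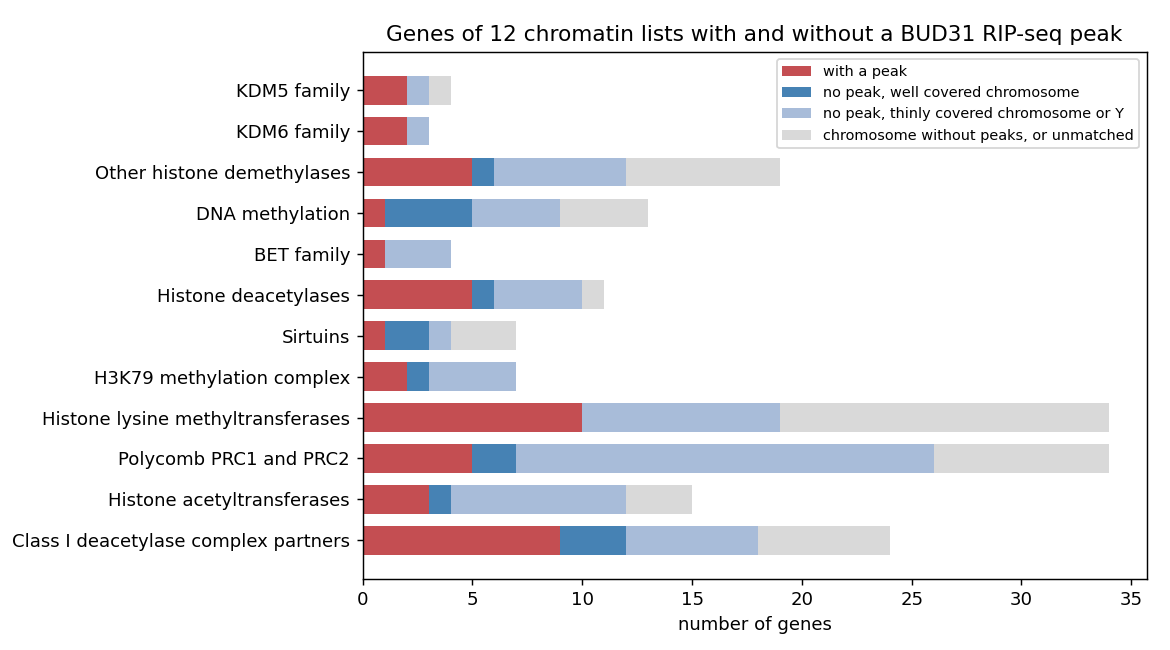
Genes of the 12 lists with and without a peak. The horizontal axis is the number of genes, and colours separate genes with a peak from genes without one on well covered chromosomes, on thinly covered chromosomes or Y, and on chromosomes without peaks or unmatched. In the lysine methyltransferase list 10 genes had a peak and none on a well covered chromosome lacked one. Of the DNA methylation genes 1 had a peak (Dnmt3a, chosen with its peaks known) and 4 on well covered chromosomes had none. Over all protein-coding genes on the well covered chromosomes 35.7% had a peak. The lists were written with earlier results of these data known, so the counts do not compare families.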

How the data were processed

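The deposited file is 1 annotated peak list for 2 RIP-seq libraries, BUD31 antibody and input. The submitters' processing notes name TopHat2 2.0.13 and the mm10 genome. For the calling of peaks, its threshold and its use of input, tools and settings are not given in the sources used. The list holds, per the file headers, peak positions in bp, a class, a transcript and a gene. Running numbers reach 65288, so it holds part of a longer numbered set. Per-peak strength and depth are unknown, and no test was run.

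Genes were matched by gene number to RefSeq's GRCm38.p6 table (42 of 3258 unmatched), which gave extents. Covered bases are the union of a gene's peaks within its extent. Bins are the greatest common divisor of peak widths and starts. Overlap means at least 1 bp. The 8 genes, lists and alternatives were chosen with earlier results of these data known. Named are the 8 genes, listed genes with a peak, paralogs, the 3 nearest in span, and 2 most alike by Euclidean distance over log2 number of peaks and covered share. Listed genes without a peak on well covered chromosomes were named after their values were seen. Interval functions were tested on simulated data. Python 3.11.15, numpy 2.4.6, pandas 2.3.3, scipy 1.17.1 and matplotlib 3.10.9 were used. Some genes that the rule would name are not reported here.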

Additional observations from a re-analysis of the deposited data

How the results depend on the processing

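Of 68 recomputed values, 54 stayed within set limits and 14 did not. The limits were 1.5 times the reported number of peaks or genes, or the exact 95% interval of the reported covered share counted over bins. Bins of 1 peak are not independent, so that interval serves only as a cut for sorting and does not measure error. Leaving out the widest peak moved the covered share of all 8 genes: to 49.0% in Kdm5b, 46.9% in Kdm5c, 51.2% in Kdm6a, 4.35% in Hdac2, 12.5% in Dnmt3a, 0% in Dot1l, 0.715% in Brdt and 55.3% in Scml2. Keeping peaks at or above the median width of their chromosome left 16 in Kdm5b, 3 in Dnmt3a, 1 in Brdt and 21 in Scml2. Joining neighbours 1 bin apart left 15 in Kdm5b, and leaving out single bins left 1 in Brdt, both chosen after seeing the data. In each of these the loss follows from the construction, which removes or joins peaks. Counting every overlapping peak, classes inside the gene, or peaks at least 50% inside it moved none of the 8 genes beyond those limits. The share of peaks free of exons was not run, since no exon annotation was used. No paired analysis was possible because there is 1 library per group. The unknown depth limits every value: a gene without a peak may have had too few reads.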

Other observations

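Some genes beside the 8 were covered more fully than they were. Dtnb, which encodes a dystrobrevin and ends 16.1 kb before Dnmt3a, had 14 peaks over 81.8% of its 213 kb, and 1 of them, annotated as downstream, covered 35.2% of the 20 kb before Dnmt3a. Gm15262, 39.6 kb after Scml2, had 15 peaks over 81.3%. Tspyl2, 57.7 kb after Kdm5c, had 1 peak over 96.5%, and the long noncoding RNA gene Kantr next to Kdm5c had an exon peak within 20 kb of it. Around Hdac2, Kdm6a and Brdt neither the coding gene before nor the one after had a peak, and no base within 20 kb of these genes was covered.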
